A study of Mus musculus with 2 samples.

Results

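The glucocorticoid-responsive genes described here are 10 of the 28692 gene rows counted in each library: the receptor gene *Nr3c1*, the receptor's targets *Fkbp5*, *Tsc22d3*, *Sgk1*, *Per1*, *Klf9* and *Ddit4*, the cell cycle inhibitor *Cdkn1a*, and the metallothioneins *Mt1* and *Mt2*. They were chosen by measured values of these same libraries, so the values below are a description and no test was made of them. All 10 were found by symbol in both libraries, each as a single row.

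Cells came from the ventral parafacial region of the brainstem, taken in slices from C57BL6/J mice that were 10 days old, and were profiled by droplet single-cell RNA sequencing (10X Genomics). Each library was made from cells of 8 pooled mice (4 male and 4 female). Mice of the first library (WT, batch 1) are called untreated because no treatment is given for them, and whether they received vehicle is not stated. Mice of the second (batch 2) had received 4OH-tamoxifen, the active metabolite of the estrogen receptor ligand tamoxifen, at 0.2 mg per day for 3 days. Condition, batch and library coincide and cannot be told apart, and mice within a pool are not separated. No transgene is named for either group.

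Glucocorticoids enter the cell and bind the receptor encoded by *Nr3c1*, which is held in the cytoplasm by heat shock chaperones. The bound receptor moves to the nucleus and binds short inverted repeats in DNA, where it raises transcription of genes such as *Fkbp5*, *Tsc22d3*, *Sgk1* and *Per1*. In brain, astrocytes, endothelial cells and oligodendrocytes are known to transcribe many of these targets after stress or steroid treatment, and several of them also answer to other signals: metallothioneins to zinc and oxidative stress, *Per1* to the clock, *Ddit4* to hypoxia and *Cdkn1a* to p53.

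The untreated library held 3767 barcodes and 18496942 unique molecular identifiers (UMIs, each standing for 1 captured transcript), and the 4OH-tamoxifen library 10241 barcodes and 34704167 UMIs. After doublets and low-quality cells were removed, 3339 untreated and 8558 4OH-tamoxifen cells remained, with a median of 3628 and 2411 UMIs per cell. The libraries shared 32 barcodes among these filtered cells. A cell was placed in a class when it held at least 1 UMI of that class's gating marker, none of the other 8 gating markers and at least 2 of 6 support markers, which placed 45.6% of untreated and 47.3% of 4OH-tamoxifen cells. Of the rest, 1530 and 3240 cells held several gating markers.

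There were 5 classes with at least 50 cells in each library. They were endothelial-like cells gated on *Cldn5* (122 untreated and 165 4OH-tamoxifen cells), astrocyte-like cells on *Aqp4* (636 and 1640), oligodendrocyte precursor-like cells on *Pdgfra* (194 and 605), oligodendrocyte-like cells on *Mog* (275 and 976) and microglia-like cells on *C1qa* (197 and 332). All 6 support markers of its own type had UMIs in each of these classes and in both libraries. Untreated cells were the deeper in every one of them. Their median was 2703 against 2008 UMIs in the *Aqp4*, 3401.5 against 2566 in the *Cldn5* and 6881 against 5090.5 in the *Mog* class. It was 3103.5 against 1798 UMIs in the *Pdgfra* and 4098 against 2274 in the *C1qa* class. Levels are UMIs of a gene per 1000000 UMIs summed over the class (CPM). They are given with exact Poisson 95% intervals, and ratios, always 4OH-tamoxifen over untreated, with exact conditional 95% intervals, both of which cover counting error only. There is 1 library per condition, so no value has a replicate.

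*Mt1* and *Mt2* were higher in the 4OH-tamoxifen library in all 5 classes, by 1.56-fold to 2.28-fold, with every interval above 1. No other member had an interval above 1 in each class. Outside astrocyte-like cells, astrocyte markers were higher in that library as well, and their part in the shift was not tested. A subtraction scaled by these markers (below) turned the direction of *Mt1* in the *Pdgfra* class. It turned that of *Mt2* in the *Pdgfra*, *Mog* and *C1qa* classes. Values of the receptor's targets differed by gene and class: *Fkbp5* was near the detection limit, *Sgk1* was lower with 4OH-tamoxifen in microglia-like and oligodendrocyte-like cells, and *Tsc22d3* went in opposite directions in endothelial-like and astrocyte-like cells. *Per1* and *Cdkn1a* were higher with 4OH-tamoxifen in endothelial-like cells, and *Klf9* in astrocyte-like and oligodendrocyte-like cells. Of 41 member and class combinations with a mean of at least 20 CPM over both libraries, 6 were at least 2-fold higher with 4OH-tamoxifen and 0 at least 2-fold higher in untreated.

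The counts are given by class beside the share of all genes with that mean. In the *Cldn5* class 2 of 9 members with that mean (*Per1* and *Mt1*) were at least 2-fold higher with 4OH-tamoxifen, where 3.16% of 6133 genes were, and 0 at least 2-fold higher in untreated, where 2.98% were. In the *Pdgfra* class the members past 2-fold were *Mt1* and *Mt2*, 2 of 8, beside 1.34% of 7016 genes, and in the other direction 0 beside 2.27%. Neither of the pair was past 2-fold there with at least 1200 genes per cell, after thinning or under other settings given below. The *C1qa* class had the same pair, 2 of 8, beside 3.28% of 5492 genes, and 0 beside 1.84%. In the *Aqp4* class 0 of 9 members were past 2-fold in either direction, where 1.55% of 6573 genes were higher with 4OH-tamoxifen and 0.38% in untreated, and in the *Mog* class 0 of 7, where 0.158% and 0.421% of 5694 genes were. Over all filtered cells 0 of 9 members passed 2-fold, beside 0.457% and 1.41% of 7001 genes. Since the members were chosen on this contrast, nothing is read from their share beside these percentages. The median log2 ratio of members was 0.40 in the *Cldn5*, 0.35 in the *Aqp4*, 0.24 in the *Pdgfra*, 0.13 in the *Mog* and 0.24 in the *C1qa* class, where the median of all genes lay between -0.09 and 0.01. Without the metallothioneins the members' medians were 0.38, 0.29, -0.02, 0.03 and 0.14 in the same order.

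**Figure D1:**
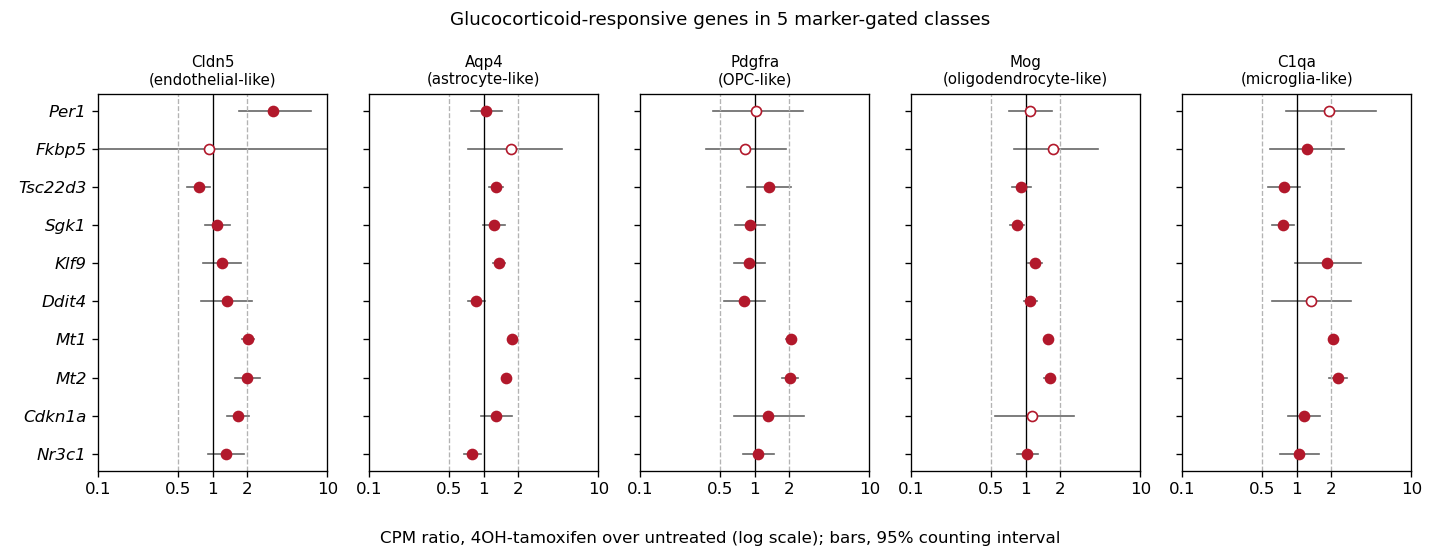
Ratio of CPM, 4OH-tamoxifen over untreated, on a log axis for the 10 members (vertical axis) in the 5 classes (panels); bars are 95% counting intervals, cut at the axis ends for *Fkbp5* in the *Cldn5* class, open points mark a mean under 20 CPM, and dashed lines mark 2-fold. *Mt1* and *Mt2* sit to the right of 1 in every panel, from 1.56 to 2.28, and most other members lie near 1, with *Per1* in the *Cldn5* class at 3.35.

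*Mt1* (ENSMUSG00000031765, chr8:94179082-94180327, plus strand, GRCm38) and *Mt2* (ENSMUSG00000031762, chr8:94172664-94173568, plus strand) encode small cysteine-rich proteins that bind zinc and copper, and lie 5513 bases apart. They are close paralogs, so the split of UMIs between them carries some uncertainty. In the *Aqp4* class *Mt1* was at 4430.4 CPM (4337 to 4525) in the untreated and 7732 CPM (7642 to 7823) in the 4OH-tamoxifen library, a ratio of 1.75 (1.70 to 1.79). *Mt2* was at 1946 CPM (1884 to 2009) and 3036 CPM (2980 to 3093), a ratio of 1.56 (1.50 to 1.62). The size of both ratios in this class depended on the cells kept. With at least 1200 genes per cell they were 1.29 for *Mt1* and 1.13 for *Mt2*, and with at most 10% mitochondrial UMIs 2.35 and 2.28. Of 12 other settings, 5 put the ratio of *Mt1* and 4 that of *Mt2* outside its interval. Among the 5 classes this one held the highest level of both genes in both libraries, 4.11 and 3.46 times the next of them for *Mt1* and 6.61 and 5.13 times for *Mt2*. The 6 neuron support markers summed to 484 CPM untreated and 1366 CPM with 4OH-tamoxifen in this class (*Nefl*, the most abundant, at 282 and 872), and their part in the class's member ratios was not tested.

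Among the other classes, microglia-like cells had 1078 CPM of *Mt1* (1009 to 1151) untreated and 2235 CPM (2133 to 2339) with 4OH-tamoxifen, a ratio of 2.07 (1.91 to 2.25). Oligodendrocyte precursor-like cells had 984 CPM (910 to 1063) and 2019 CPM (1939 to 2101), a ratio of 2.05 (1.88 to 2.24). Endothelial-like cells had 679 CPM (609 to 753) and 1374 CPM (1278 to 1474), a ratio of 2.02 (1.78 to 2.30). In none of the 5 classes did the libraries' intervals for *Mt1* overlap. Oligodendrocyte-like cells had 719 CPM (683 to 755) and 1127 CPM (1099 to 1155), the smallest ratio of the 5 at 1.57 (1.48 to 1.66). *Mt2* followed *Mt1*, with 182 and 362 CPM and a ratio of 1.99 (1.55 to 2.57) in the *Cldn5* class, 294 and 591 CPM and 2.01 (1.71 to 2.37) in the *Pdgfra* class, 166 and 267 CPM and 1.61 (1.44 to 1.81) in the *Mog* class, and 211 and 481 CPM and 2.28 (1.91 to 2.74) in the *C1qa* class.

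The shift of *Mt1* was seen in the typical cell as well as in the sum, and that of *Mt2* in each class but *Mog*. With each cell thinned to 2000 UMIs, which left 561 of 636 untreated and 840 of 1640 4OH-tamoxifen cells of the *Aqp4* class, the median cell held 8 UMIs of *Mt1* untreated and 15 with 4OH-tamoxifen, and 3 and 5 UMIs of *Mt2*. The quartiles of *Mt1* were 5 and 12 UMIs untreated and 6 and 22 with 4OH-tamoxifen, so the lower quartiles lay close together and the upper ones far apart. The share of *Aqp4*-class cells with *Mt1* was already 99.8% (99.1 to 100) and 99.6% (99.2 to 99.9) as counted. The thinned median of *Mt1* was 2 and 4 UMIs in the *C1qa* class, 2 and 3 in the *Pdgfra* class and 1 and 2 in both the *Mog* and *Cldn5* classes. That of *Mt2* was 0 and 1 in the *C1qa*, *Pdgfra* and *Cldn5* classes and 0 in both libraries in the *Mog* class. In the *Pdgfra* class thinning left 177 of 194 untreated and 212 of 605 4OH-tamoxifen cells. *Aqp4*-class cells with a UMI of *Gfap*, an intermediate filament gene of astrocytes (332 untreated and 945 4OH-tamoxifen cells), had a *Mt1* ratio of 1.91 (1.85 to 1.98), and those without (304 and 695) 1.53 (1.48 to 1.59). In both the 4OH-tamoxifen library was the higher; this split was chosen after the data were seen.

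Droplets also carry free RNA, and astrocyte genes were counted in every class. The 6 astrocyte support markers (*Slc1a3*, *Slc1a2*, *Gja1*, *Aldoc*, *Atp1b2* and *Ntsr2*), of which none was at 0 in any of the 5 classes, summed to 10753 and 9765 CPM in the *Aqp4* class, untreated and 4OH-tamoxifen, with *Atp1b2* the most abundant at 2795 and 2454 CPM. In the *Pdgfra* class they summed to 1593 and 2390 CPM (*Slc1a2*, the most abundant, at 496 and 862), in the *C1qa* class to 823 and 1548 CPM (*Aldoc* at 295 untreated and *Slc1a2* at 537 with 4OH-tamoxifen), in the *Cldn5* class to 856 and 1060 CPM (*Aldoc* at 300 and 337) and in the *Mog* class to 545 and 704 CPM (*Aldoc* at 184 untreated and *Slc1a2* at 233 with 4OH-tamoxifen). Astrocyte markers were thus higher with 4OH-tamoxifen in the same 4 classes outside astrocytes in which *Mt1* and *Mt2* were higher, and not in astrocyte-like cells. As a share of the *Aqp4* class, the markers stood at 14.8% and 24.5% in the *Pdgfra* class and *Mt1* at 22.2% and 26.1%. In the *C1qa* class the markers stood at 7.65% and 15.8% and *Mt1* at 24.3% and 28.9%, in the *Cldn5* class at 7.96% and 10.9% and *Mt1* at 15.3% and 17.8%, and in the *Mog* class at 5.07% and 7.21% and *Mt1* at 16.2% and 14.6%.

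A subtraction chosen after the data were seen took, in each library, the *Aqp4*-class level times the astrocyte-marker share out of each other class. It removes too much where a class transcribes such a marker itself. It left 326 and 534 CPM of *Mt1* in the *Cldn5* class, a ratio of 1.64, 739 and 1009 CPM in the *C1qa* class, a ratio of 1.37, and 494 and 569 CPM in the *Mog* class, a ratio of 1.15. In the *Pdgfra* class it left 328 and 127 CPM, a ratio of 0.387, so the direction turned. *Mt2* kept its direction only in the *Cldn5* class, at 1.20. The part of free RNA in the metallothionein difference outside astrocyte-like cells was not tested.

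Within a library the number of *Mt1* UMIs per *Mt2* UMI differed between classes. In the untreated library it was 2.28 (2.19 to 2.37) in the *Aqp4* class, 3.34 (2.84 to 3.95) in the *Pdgfra*, 3.73 (2.97 to 4.74) in the *Cldn5*, 4.34 (3.86 to 4.88) in the *Mog* and 5.12 (4.35 to 6.06) in the *C1qa* class. With 4OH-tamoxifen the order was unchanged, at 2.55, 3.41, 3.80, 4.22 and 4.65.

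**Figure D2:**
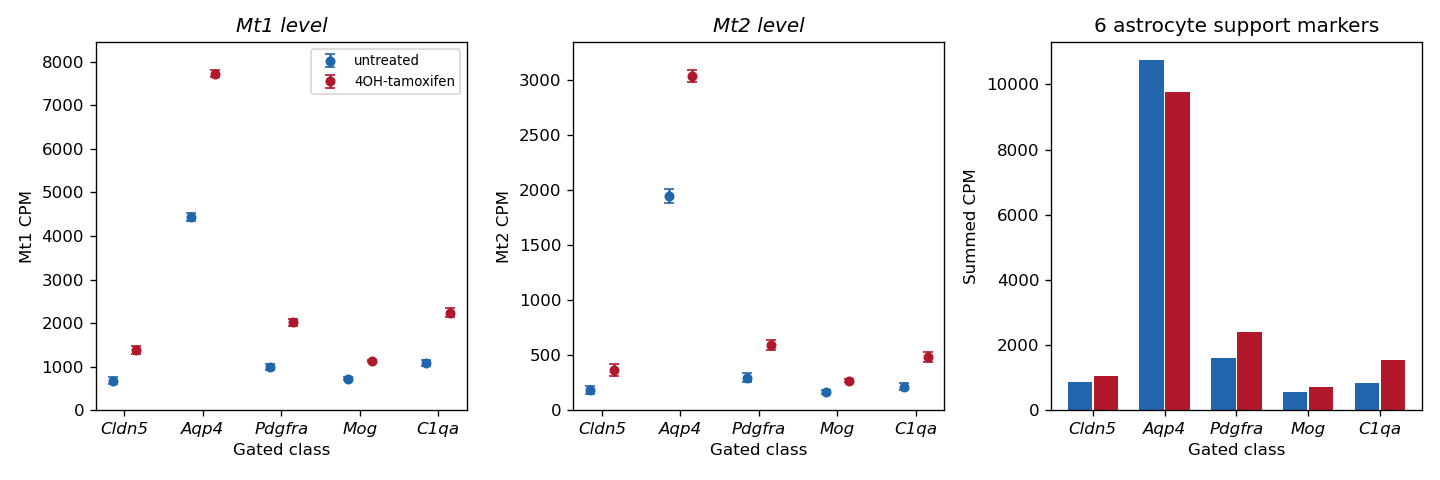
Left and middle, CPM of *Mt1* and *Mt2* in the 5 classes, untreated (blue) and 4OH-tamoxifen (red), with exact Poisson 95% intervals; right, summed CPM of the 6 astrocyte support markers in the same cells. The red point is above the blue one for both genes in each class, highest in the *Aqp4* class (4430.4 and 7732 CPM of *Mt1*), while the marker bars are higher in red in each class but *Aqp4*.

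*Nr3c1* (ENSMUSG00000024431, minus strand), which encodes the glucocorticoid receptor itself, was counted in all 5 classes, the highest of them at 1.93 times the lowest in the untreated and 2.25 times in the 4OH-tamoxifen library. In the *Aqp4* class it was at 114 CPM (99.1 to 130) untreated and 90.04 CPM (80.6 to 100) with 4OH-tamoxifen, a ratio of 0.792 (0.666 to 0.944). With cells limited to 10% mitochondrial UMIs that ratio was 1.09, so its direction is not firm. The other 4 classes had ratios of 1.02 to 1.30 whose intervals all included 1, with 104 and 135 CPM in the *Cldn5*, 99.2 and 107 CPM in the *Pdgfra*, 58.8 and 60.2 CPM in the *Mog* and 62.6 and 65.9 CPM in the *C1qa* class.

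Receptor chaperones and cofactors, the mineralocorticoid receptor and the enzymes that activate or inactivate corticosterone form a list of 12 genes, of which 8 to 10 had a mean of 20 CPM in a class. A single one was past 2-fold in any class: *Hsd11b1*, whose enzyme regenerates active corticosterone inside the cell, was at 106 CPM untreated and 48.2 CPM with 4OH-tamoxifen among astrocyte-like cells, a ratio of 0.453 (0.368 to 0.557). The list's median log2 ratio was 0.01 in the *Cldn5*, 0.09 in the *Aqp4*, -0.29 in the *Pdgfra*, -0.23 in the *Mog* and -0.06 in the *C1qa* class, and its sum went from 2022 to 2063 CPM in the *Aqp4* class and from 3204 to 2744 CPM in the *Pdgfra* class. The sign of the list's median turned under other settings in the *Cldn5* (7 of 16), *Aqp4* (1 of 16) and *C1qa* (4 of 15) classes.

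*Fkbp5* (ENSMUSG00000024222, chr17:28399094-28517527, minus strand) encodes a co-chaperone that lowers the receptor's affinity for hormone and is among its most sensitive targets. It reached a mean of 20 CPM only in microglia-like cells, with 18.05 CPM (10.1 to 29.8) from 15 UMIs untreated and 22.0 CPM (13.0 to 34.7) from 18 UMIs with 4OH-tamoxifen, a ratio of 1.22 (0.579 to 2.59). Oligodendrocyte precursor-like cells had 18.3 and 15.0 CPM, and the other 3 classes between 3.56 and 6.38 CPM in either library. A 2-fold difference of *Fkbp5* in at least 1 direction was within counting error in each of the 5 classes.

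*Tsc22d3* (ENSMUSG00000031431, chrX:140539528-140600659, minus strand), also called GILZ, encodes a leucine zipper protein through which glucocorticoids restrain inflammatory transcription. Among the 5 classes endothelial-like cells had the highest level in both libraries, 317 CPM (270.4 to 369) untreated and 239 CPM (200.04 to 283) with 4OH-tamoxifen, a ratio of 0.753 (0.595 to 0.952). Astrocyte-like cells came next with 152 CPM (135 to 170.5) and 194 CPM (180.01 to 209), a ratio of 1.28 (1.11 to 1.47). The gene was therefore lower with 4OH-tamoxifen in one class and higher in the other. In the *C1qa*, *Mog* and *Pdgfra* classes the intervals included 1, with ratios of 0.774, 0.915 and 1.32. With at least 1200 genes per cell the *C1qa* ratio was 0.410, below its interval. The order of the 5 classes was the same in both libraries, although with 4OH-tamoxifen neither *C1qa* and *Mog* nor *Mog* and *Pdgfra* differed beyond counting error.

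*Sgk1* (ENSMUSG00000019970, chr10:21882184-21999903, plus strand) encodes a kinase of ion transport and cell survival. Microglia-like cells had 236 CPM (204 to 271) untreated and 178 CPM (150.45 to 210) with 4OH-tamoxifen, a ratio of 0.756 (0.606 to 0.941). Oligodendrocyte-like cells had 138 CPM (122 to 154) and 115 CPM (107 to 125), a ratio of 0.840 (0.730 to 0.967). In both classes the kinase gene was the lower with 4OH-tamoxifen. Markers of border macrophages were lower as well in the *C1qa* class, at 706 and 410.1 CPM in sum (*Pf4*, the most abundant, at 535 and 323), and their part in its *Sgk1* ratio was not tested. In endothelial-like cells it was at 217 and 237 CPM, a ratio of 1.09 (0.845 to 1.42), and in oligodendrocyte precursor-like cells at 108 and 97.5 CPM, a ratio of 0.900 (0.664 to 1.23). The *Aqp4* class had the lowest level of the 5 in both libraries, 65.4 and 80.2 CPM, and its ratio of 1.23 (0.992 to 1.52) was 0.716 with at most 10% mitochondrial UMIs and 2.00 after thinning.

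*Klf9* (ENSMUSG00000033863, chr19:23141226-23168134, plus strand), a Krüppel-like transcription factor gene induced by glucocorticoids and thyroid hormone, was highest in astrocyte-like cells. It was at 188 CPM (169 to 209) untreated and 253 CPM (237 to 270.3) with 4OH-tamoxifen there, a ratio of 1.35 (1.19 to 1.52), and at 133 CPM (118 to 150) and 161 CPM (150 to 172) in oligodendrocyte-like cells, a ratio of 1.20 (1.05 to 1.38). Of the 5 classes, these are the ones in which *Klf9* was higher with 4OH-tamoxifen beyond counting error. Endothelial-like cells had 102 and 123 CPM, oligodendrocyte precursor-like cells 107 and 95.0 CPM and microglia-like cells 19.2 and 35.4 CPM (16 and 29 UMIs), with intervals that included 1. After thinning the ratio of *Klf9* was 1.03 in oligodendrocyte-like cells, below its interval at full depth, and 4.01 in microglia-like cells. Thinning also left out the shallower cells, and why the values moved was not tested.

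*Ddit4* (ENSMUSG00000020108, chr10:59949669-59951834, minus strand), also called REDD1, encodes an inhibitor of mTORC1 signalling. Its highest level among the 5 classes was in oligodendrocyte-like cells, at 129 CPM (114 to 145) untreated and 141 CPM (131 to 151) with 4OH-tamoxifen, and its lowest in microglia-like cells, at 15.6 and 20.7 CPM. The ratio's interval included 1 in each of the 5 classes, with ratios from 0.806 in the *Pdgfra* to 1.33 in the *C1qa* class. After thinning, the ratio of 1.32 in the *Cldn5* class was 0.679, outside its interval and on the other side of 1. *Ddit4* thus differed more between classes than between libraries.

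*Per1* (ENSMUSG00000020893, chr11:69095217-69109960, plus strand) encodes a repressor of the circadian clock and is also an immediate early gene. In endothelial-like cells it was at 21.3 CPM (10.6 to 38.1), or 11 UMIs, untreated and at 71.3 CPM (50.9 to 97.05), or 40 UMIs, with 4OH-tamoxifen, a ratio of 3.35 (1.69 to 7.24) and the largest of any member in the 5 classes. The share of endothelial-like cells with *Per1* was 7.38% (3.43 to 13.5) and 17.6% (12.1 to 24.3) as counted, at median depths of 3401.5 and 2566 UMIs, and 2.83% (0.588 to 8.05) of 106 and 12.8% (7.36 to 20.3) of 117 cells after thinning. In microglia-like cells, a class of low *Per1* level used as the background, it was 4.57% and 5.12% as counted at 4098 and 2274 UMIs, so the untreated endothelial-like share was not above the background beyond counting error. In the *Aqp4* class *Per1* was at 34.8 and 36.4 CPM, a ratio of 1.05 (0.775 to 1.43), and in the *Pdgfra*, *Mog* and *C1qa* classes it was under a mean of 20 CPM.

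Markers of pericytes moved with *Per1* in the *Cldn5* class. All 6 had UMIs in both libraries, and they summed to 779 and 1420.02 CPM, with *Rgs5* the most abundant at 626 and 923 CPM. Without the cells that held at least 2 of them, a choice made after the data were seen, the ratio of *Per1* was 3.44 in the 102 untreated and 118 4OH-tamoxifen cells left. Whether pericytes had a part in the difference of *Per1* was not tested.

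*Cdkn1a* (ENSMUSG00000023067, chr17:29090976-29100727, plus strand), which encodes the cyclin-dependent kinase inhibitor p21, was the member most unevenly distributed over the 5 classes. Endothelial-like cells had 261 CPM (219 to 309) untreated and 429 CPM (377 to 487) with 4OH-tamoxifen, a ratio of 1.65 (1.33 to 2.05), and oligodendrocyte-like cells 4.63 and 5.29 CPM. Pericyte markers (779 and 1420.02 CPM in sum) and neuron markers (298 and 527 CPM) were also higher with 4OH-tamoxifen in endothelial-like cells. Their part in the ratio of *Cdkn1a* was not tested. The share of endothelial-like cells with *Cdkn1a* was 52.5% (43.2 to 61.6) and 62.4% (54.6 to 69.8) as counted, and 33.02% (24.2 to 42.8) and 52.99% (43.5 to 62.3) after thinning. Oligodendrocyte-like cells gave a background of 2.55% and 2.46% at more than the depth of endothelial-like cells. Endothelial-like cells were thus set apart from the other 4 classes far more than the libraries from each other. In the *C1qa* class the gene was at 87.8 and 101 CPM and in the *Pdgfra* class at 19.8 and 25.8 CPM, with intervals that included 1. After thinning, the ratio of 1.30 in the *Pdgfra* class was 0.417, outside its interval and on the other side of 1. The *Aqp4*-class values of 30.6 and 39.1 CPM gave a ratio of 1.28 (0.938 to 1.76) that was 0.789 with at least 1200 genes per cell and 2.52 with at most 10% mitochondrial UMIs.

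The 4 classes with fewer than 50 untreated cells gave values only. Among pericyte-like cells (*Kcnj8*, 39 untreated and 30 4OH-tamoxifen cells) *Mt1* was at 1123 and 2780.1 CPM, a ratio of 2.48 (1.92 to 3.20). Inhibitory neuron-like cells (*Slc32a1*, 32 and 176) had 488 and 1084 CPM, a ratio of 2.22 (1.82 to 2.74), and glutamatergic neuron-like cells (*Slc17a6*, 15 and 81) 359 and 866 CPM, a ratio of 2.41 (1.74 to 3.40). Cholinergic neuron-like cells (*Chat*, 11 and 46) had 755 and 801 CPM, a ratio of 1.06 (0.777 to 1.47). *Mt1* was therefore higher with 4OH-tamoxifen in 3 of these 4 classes and within counting error in the cholinergic class. The astrocyte support markers were also higher with 4OH-tamoxifen in these classes, at 1327 and 2780.1 CPM in the pericyte-like, 1606 and 1896 CPM in the inhibitory, 1019 and 1315 CPM in the glutamatergic and 997 and 1174 CPM in the cholinergic class. As a share of the *Aqp4* class they went from 12.3% to 28.5% in pericyte-like cells, and the part of free RNA in these ratios was not tested. *Mt2* was at 408 and 1019 CPM in pericyte-like cells, a ratio of 2.50 (1.63 to 3.85), and at 112 and 355 CPM in inhibitory neuron-like cells, a ratio of 3.17 (2.10 to 5.00). *Mt2* intervals in the glutamatergic and cholinergic classes included 1. *Klf9* had 3 and 8 UMIs in pericyte-like cells (30.6 and 148 CPM), a ratio of 4.84 (1.16 to 28.3). *Tsc22d3* was at 332 CPM (208 to 503) and 399 CPM (328 to 480.5) in cholinergic neuron-like cells, within counting error of the endothelial-like level untreated and above it with 4OH-tamoxifen. *Sgk1* had 0 UMIs among the 223498 of untreated inhibitory neuron-like cells and 20 UMIs (28.5 CPM) with 4OH-tamoxifen, a ratio whose interval has a lower limit of 1.57. *Nr3c1* had 7 and 5 UMIs in glutamatergic neuron-like cells, a ratio of 0.263 (0.0659 to 0.964).

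Other genes known to answer to glucocorticoids formed a list of 23, of which 3 to 7 reached a mean of 20 CPM in a class. One was past 2-fold: *Fam107a*, a stress-regulated actin-binding protein gene, at 11.4 and 36.1 CPM in astrocyte-like cells, a ratio of 3.16 (2.01 to 5.22). The median log2 ratio of the list was -0.32 in the *Cldn5*, 0.22 in the *Aqp4*, 0.13 in the *Pdgfra*, 0.30 in the *Mog* and -0.31 in the *C1qa* class. Under other settings this median turned its sign in 3 classes, ranging from -0.37 to 0.31 in the *Aqp4*, -0.94 to 0.38 in the *Pdgfra* and -0.29 to 0.34 in the *Mog* class. It stayed below 0 in the *Cldn5* class, from -0.37 to -0.19, and in the *C1qa* class, from -0.46 to -0.24. In the *Aqp4* class 1 of 7 was past 2-fold with 4OH-tamoxifen and in each of the other classes 0 in either direction.

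Among 6 other genes of the metal response, none with a mean of 20 CPM was past 2-fold. *Mt3*, a metallothionein gene of the nervous system and the most abundant of the list in 4 of the 5 classes, is named here after its values were seen. It was at 2156 and 2679 CPM in the *Aqp4* class, a ratio of 1.24 (1.20 to 1.29), and its ratio was 1.54 in the *Cldn5*, 1.50 in the *Pdgfra*, 1.49 in the *Mog* and 1.73 in the *C1qa* class. *Mt3* thus shifted in the direction of *Mt1* and *Mt2*, with a smaller ratio in each class. Its interval overlapped those of both in the *Cldn5* (1.28 to 1.85), *Mog* (1.35 to 1.65) and *C1qa* (1.51 to 1.98) classes. The differences between the ratios were not tested. Astrocyte markers were higher too outside the *Aqp4* class, and their part in the ratios of *Mt3* was not tested. For the whole list the median log2 ratio was 0.13 in the *Cldn5*, 0.32 in the *Aqp4*, 0.001 in the *Pdgfra*, 0.21 in the *Mog* and -0.05 in the *C1qa* class. Under other settings its sign turned in the *Cldn5*, *Pdgfra* and *C1qa* classes.

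Of the clock, p53 and integrated stress response lists, with 12, 8 and 7 genes, a single gene with that mean was past 2-fold in any class. This was the clock repressor gene *Cry1* in endothelial-like cells, at 29.0 and 14.3 CPM, a ratio of 0.492 (0.180 to 1.23). The hypoxia list of 10 genes also had a single one past 2-fold, *Ankrd37* in endothelial-like cells, at 90.9 and 24.9 CPM, a ratio of 0.275 (0.140 to 0.507). Its median log2 ratio was -0.57 in the *Cldn5*, -0.21 in the *Aqp4*, -0.42 in the *Pdgfra*, -0.41 in the *Mog* and 0.04 in the *C1qa* class. Under other settings the sign of this median turned in the *Pdgfra* (1 of 15) and *C1qa* (7 of 15) classes. The p53 list, to which *Cdkn1a* belongs by regulation, had a median log2 ratio of 0.28 in endothelial-like cells, with 0 of 4 past 2-fold. In the other classes that median was 0.03 in the *Aqp4*, -0.16 in the *Pdgfra*, 0.12 in the *Mog* and -0.02 in the *C1qa* class. Under other settings its sign turned in the *Aqp4* (6 of 16), *Mog* (3 of 15) and *C1qa* (7 of 15) classes.

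Immediate early genes that dissociation of tissue can induce were mostly lower with 4OH-tamoxifen. In a list of 12 such genes, whose heat shock genes stayed under a mean of 20 CPM except *Hspa1a* in microglia-like cells, 7 of 8 with a mean of 20 CPM were at least 2-fold higher in untreated oligodendrocyte precursor-like cells, 3 of 9 in endothelial-like, 2 of 3 in oligodendrocyte-like, 1 of 3 in astrocyte-like and 1 of 11 in microglia-like cells. Their summed level was 1558 CPM untreated and 596 CPM with 4OH-tamoxifen in the *Pdgfra* class, and 1324 and 777 CPM in the *Cldn5* class. In the *C1qa* class it was 5559 and 3093 CPM, in the *Aqp4* class 282 and 184 CPM and in the *Mog* class 214 and 133 CPM. In the *Pdgfra* class *Egr1*, a zinc finger transcription factor gene, was at 337 and 94.1 CPM, a ratio of 0.279 (0.220 to 0.352), and *Junb*, an AP-1 subunit gene, at 87.0 and 29.2 CPM, a ratio of 0.335 (0.214 to 0.519). *Fosb* was the furthest apart in endothelial-like cells, at 38.7 and 7.13 CPM, a ratio of 0.184 (0.0458 to 0.550), while *Per1* in the same cells was higher with 4OH-tamoxifen. One gene went against the rest of its list: *Nr4a1*, a nuclear receptor gene, was at 20.5 and 53.7 CPM in microglia-like cells, a ratio of 2.63 (1.47 to 4.90). The median log2 ratio of the list was below 0 in each class, from -1.47 in the *Pdgfra* to -0.50 in the *Aqp4* class. These values move with the libraries, and their part in the members' differences was not tested.

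Likeness over the 10 class-by-library values was measured by Pearson's r of log2(CPM + 10) among 9869 genes, as a description over points that share libraries and free RNA. *Mt1* and *Mt2* were each other's nearest genes (r = 0.98), followed by *Kcnc4* and *Enho* for *Mt1* (0.96 and 0.96) and *Gabra4* and *Fgfr3* for *Mt2* (0.98 and 0.98). The nearest to *Per1* were *Mylk*, *Ift172* and *Itih5* (0.91 to 0.97), to *Cdkn1a* *Gnai2*, *Sec14l1* and *Eml3* (all 0.98) and to *Nr3c1* *Inpp1*, *Mrps14* and *Stk38* (0.96 to 0.97). For the remaining targets they were *Cebpz*, *Asf1b* and *Mtdh* for *Fkbp5*, *Fgd6*, *Dapk1* and *Extl3* for *Tsc22d3*, *Atp6v1d*, *Cebpg* and *Cdc37* for *Sgk1*, *Cdk16*, *Kdm5b* and *Kdsr* for *Klf9*, and *Malat1*, *Tmem205* and *Bcar1* for *Ddit4*, with r from 0.94 to 0.98. Apart from the metallothionein pair, no member was among the nearest 3 genes of another.

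Promoters of the members were read for the motifs of their known regulators, because *Mt1* and *Mt2* were the pair that shifted together. RefSeq promoters (GRCm38.p6), from 250 bases before to 50 after a gene start, were matched for 9 members with 18 starts. The glucocorticoid response element was searched as GNACA and TGTNC with 3 bases between them (N standing for any base), the core of the metal response element as TGCACNC or TGCGCNC the E-box of clock factors as CACGTG and the cyclic AMP response element as TGACGTCA, on both strands. They were found in 0.475%, 25.7%, 7.15% and 1.79% of all 32851 promoters. The metal core was matched 3 times in the promoter of *Mt1* and 4 times in that of *Mt2*, and 1 time in a promoter each of *Per1*, *Sgk1* and *Ddit4*, while 1.97% of all promoters held at least 3 matches. The promoters of *Mt1* and *Mt2* are printed on the plus strand, 5′ to 3′, with the metal cores in capitals (chr8:94178839-94179138 for *Mt1* and chr8:94172368-94172667 for *Mt2*).
*Mt1*: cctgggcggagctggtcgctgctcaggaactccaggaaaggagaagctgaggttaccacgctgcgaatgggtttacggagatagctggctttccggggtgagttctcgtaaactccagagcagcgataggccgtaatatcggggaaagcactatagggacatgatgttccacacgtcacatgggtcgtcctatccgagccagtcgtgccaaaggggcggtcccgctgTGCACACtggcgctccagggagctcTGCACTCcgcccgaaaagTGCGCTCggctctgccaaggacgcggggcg
*Mt2*: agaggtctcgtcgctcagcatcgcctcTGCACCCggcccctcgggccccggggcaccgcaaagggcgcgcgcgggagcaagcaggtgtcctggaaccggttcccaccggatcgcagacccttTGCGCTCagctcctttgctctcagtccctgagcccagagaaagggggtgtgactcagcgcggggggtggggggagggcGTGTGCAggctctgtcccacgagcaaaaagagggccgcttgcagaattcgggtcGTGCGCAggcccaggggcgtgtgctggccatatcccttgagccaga
The glucocorticoid element was matched in promoters of 2 members, *Mt1* (chr8:94178975-94179027) and *Sgk1* (chr10:21993682-21993734), shown with 20 bases on each side and the match in capitals.
*Mt1*: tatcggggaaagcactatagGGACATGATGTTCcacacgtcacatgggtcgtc
*Sgk1*: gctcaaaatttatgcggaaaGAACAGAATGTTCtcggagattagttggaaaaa
*Per1*, *Fkbp5* and *Sgk1* held an E-box, and no member held the cyclic AMP element. A match is a string of letters and not a measured site, and regulators that bind further from the start lie outside these windows.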

How the data were processed

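The counts are UMIs per gene and barcode as deposited: per the submitters' processing notes they ran bcl2fastq 2.18.0.12 and Cell Ranger 2.2.0, and the positions are those of GRCm38. No read was realigned. Scrublet (scanpy 1.11.5) removed 6 untreated and 544 4OH-tamoxifen barcodes at thresholds of 0.512 and 0.179. Kept cells had at least 800 genes, at most 50 hemoglobin UMIs and at most 20% mitochondrial UMIs. UMIs were summed per class and library and divided by all UMIs of the class. Intervals came from scipy 1.17.1, with numpy 2.4.6, pandas 2.3.3 and Python 3.11.15, and plots from matplotlib 3.10.9. A ratio is past 2-fold only with a mean of at least 20 CPM. Thinning drew 2000 UMIs per cell and left out shallower cells. The members and lists were chosen with earlier results of these data known. Genes outside the members are named when past 2-fold (at most the top ones of a list), when most abundant in a marker list, or when among the nearest 3 by r; exceptions are said where they stand. The sums were repeated under 14 other settings of filters, gates, scaling, depth and the CPM limit, and under 4 more chosen after the data were seen.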

Additional observations from a re-analysis of the deposited data

Results flagged for a closer look

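*Tsc22d3* differed in direction between classes: its ratio of 4OH-tamoxifen over untreated was 1.28 in the *Aqp4* class and 0.753 in the *Cldn5* class, with intervals on opposite sides of 1. The difference between these ratios was not tested.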

How the results depend on the processing

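With 1 library per condition, no paired analysis was possible, and neither batch nor variation among mice can be separated from treatment. Gating on detected UMIs depends on depth, which was higher in the untreated library. All 10 *Mt1* and *Mt2* ratios stayed above 1 under the 12 other settings of filter, gate, scaling and depth, from 1.13 to 2.37, while 12 of the 31 other member ratios fell on the other side of 1 in at least 1 of them.

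The number of members at least 2-fold higher with 4OH-tamoxifen moved as follows. The share of all genes past 2-fold was counted only under the settings of the Results, so nothing is read from the numbers here and in the next paragraph. With at least 1200 genes per cell it was 1 in the *Cldn5* class (*Per1*) and 0 in the *Pdgfra* class, and 1 member (*Tsc22d3*) was past 2-fold higher in untreated in the *C1qa* class. With at most 10% mitochondrial UMIs it was 3 in the *Aqp4* class (*Mt1*, *Mt2* and *Cdkn1a*), where 166 untreated and 658 4OH-tamoxifen cells were left. In the *Pdgfra* class it was 1 with at least 2 UMIs of the gating marker (*Mt2*) or without the top 1% of cells (*Mt1*), and 0 with other gating markers allowed or with the mean of each cell's CPM. After thinning it was 1 in the *Aqp4* class (*Sgk1*) and 0 in the *Pdgfra* class, where 1 (*Cdkn1a*) was past 2-fold in untreated. In the *Cldn5* class thinning left the number at 2 but changed its members, since *Mt1* went to 1.70 and *Cdkn1a* to 2.09. In the *C1qa* class *Klf9* took the place of *Mt1* with at least 1200 genes per cell or with other gating markers allowed. Under some settings *Mt2* in the *Cldn5* class or *Klf9* in the *C1qa* class brought the number to 3. At a mean of 50 CPM it was 1 in the *Cldn5* class (*Mt1*).

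Among the alternatives chosen after the data were seen, the astrocyte-marker subtraction gave 1 in the *Cldn5* class (*Per1*), 0 in the *Pdgfra* class with 2 (*Klf9* and *Mt1*) in untreated, and 0 in the *C1qa* class with 1 (*Mt2*) in untreated. In the *Pdgfra* class the median log2 ratio of members was then -0.73, and the ratios turned to 0.387 for *Mt1* and 0.405 for *Mt2*, and in the *C1qa* class that of *Mt2* turned to 0.0594, both *Mt2* ratios with 4OH-tamoxifen set at a floor of 3 UMIs. In *Aqp4*-class cells with *Gfap* it was 1 (*Cdkn1a*). The cause was not tested.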

Other observations

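Over all filtered cells *Mt1* was at 1470.2 CPM untreated and 2490 CPM with 4OH-tamoxifen, and *Klf9* at 125 and 159 CPM. Members with a mean of at least 20 CPM went in both directions there. Intervals below 1 were those of *Sgk1* at 130 and 116 CPM, *Cdkn1a* at 52.5 and 45.4 CPM and *Nr3c1* at 78.3 and 72.0 CPM. The classes made up different shares of the filtered cells in the untreated and 4OH-tamoxifen libraries. These were 3.65% and 1.93% for the *Cldn5*, 5.90% and 3.88% for the *C1qa* and 8.24% and 11.4% for the *Mog* class. Their part in the values over all filtered cells was not tested. *Cdkn1a* had ratios above 1 in each of the 5 classes, but its mean was under 20 CPM in the *Mog* class. Among the others its interval was above 1 only in the *Cldn5* class.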
